A study of Homo sapiens with 3 samples.

Results

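The miR-26 family was examined in extracellular vesicles (EVs) of HepG2, an established human cell line from a liver tumor. Its members were taken by name, as all rows of the count table that begin with miR-26a or miR-26b. This gave 5 of 512 human (hsa) miR names: hsa-miR-26a-5p, hsa-miR-26b-5p and the 3p arms hsa-miR-26a-1-3p, hsa-miR-26a-2-3p and hsa-miR-26b-3p, written without the prefix from here on. EVs are membrane-enclosed particles that cells release. Here they were collected by ultracentrifugation from medium without serum after 48 h of culture of unmodified HepG2 cells, in 3 batches of this 1 condition, and 1 small RNA library per batch was sequenced. Whether each batch had a culture of its own is not stated, so the spread between them may be technical. The libraries held 8704, 10834 and 7933 miR counts in batches 1, 2 and 3. A miR with 0 counts could have had a share of up to 0.0345%, 0.0277% and 0.0378% in these libraries (3 counts of the total). Intervals, floors and p-values below reflect the error of counting alone, as PCR copies were not told from separate molecules. The liver label was compared with 4 hepatocyte miRs, which together made up 16.2% ± 0.428 (SD, n = 3) of the counts. Most of this was miR-148a-3p. Of 17 miRs that mark blood, endothelial, stromal or muscle cells, 10 had no count in any batch, among them miR-451a of red blood cells and miR-1-3p of muscle.

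A miR guides the silencing complex to messenger RNAs, mostly through pairing of its seed, bases 2 to 8, with the 3' UTR. The genes of the miR-26 family lie in introns of the CTDSP genes, which encode phosphatases that act on the tail of RNA polymerase II and are also known to act on the retinoblastoma protein. miR-26a is best known in liver as a tumor suppressor that is lowered in liver cancer and that slows the cell cycle, in part through the cyclin CCND2. Targets described for the family include EZH2, a histone methyltransferase of the Polycomb complex.

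The mature 5p sequences (RefSeq, GRCh38.p14) are shown because the family shares its seed, in capitals here, and because both counted members differ so little.
miR-26a-5p: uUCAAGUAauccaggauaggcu
miR-26b-5p: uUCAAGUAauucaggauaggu
miR-1297: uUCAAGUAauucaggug
miR-4465: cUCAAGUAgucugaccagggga
Over the 21 bases that can be compared, miR-26a-5p and miR-26b-5p had 19 in common. Counted from the 5' end, with the base of miR-26a-5p first, they differed by C11U and C21U, and miR-26a-5p is 22 bases long, 1 base longer. Within the first 20 bases only C11U separates them, so a read that lacks the last bases is assigned to one or the other by 1 base. The next most similar name of the table, miR-155-5p, differed from miR-26a-5p at 8 of the first 20 bases. How the authors treated mismatches is not given in the sources used here, and whether counts of miR-26b-5p include reads of miR-26a-5p was not tested. Of 512 names, 451 matched a RefSeq mature sequence, all 5 members among them, and the seed UCAAGUA occurred in miR-26a-5p and miR-26b-5p only. RefSeq lists it also in miR-1297 and miR-4465, which are not names of the count table.

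The 3p sequences are shown because none of them was counted, with their bases 2 to 8 in capitals.
miR-26a-1-3p: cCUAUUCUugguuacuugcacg
miR-26a-2-3p: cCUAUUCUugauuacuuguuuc
miR-26b-3p: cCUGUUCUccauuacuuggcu
The 3p arms of both miR-26a hairpins share the seed CUAUUCU but differ at 5 of 22 bases (G11A, C19U, A20U, C21U and G22C, with the base of miR-26a-1-3p first), so that they have names of their own. The 5p arm is the same in both hairpins, and a count of miR-26a-5p therefore cannot be given to one locus. Each hairpin is shown with its mature arms in capitals.
MIR26A1: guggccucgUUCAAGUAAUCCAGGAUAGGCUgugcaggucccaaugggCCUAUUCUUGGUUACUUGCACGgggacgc
MIR26A2: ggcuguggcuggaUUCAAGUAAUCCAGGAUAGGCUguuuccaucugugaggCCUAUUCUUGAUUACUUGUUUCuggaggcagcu
MIR26B: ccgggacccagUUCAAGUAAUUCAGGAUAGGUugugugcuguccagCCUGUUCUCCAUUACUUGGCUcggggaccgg
MIR26A1 lies on the plus strand at chr3:37969404-37969480, in intron 5 of 7 of CTDSPL. MIR26A2 lies on the minus strand at chr12:57824609-57824692, in intron 5 of 7 of CTDSP2. MIR26B lies on the plus strand at chr2:218402646-218402722, in intron 4 of 6 of CTDSP1. Introns were numbered in the longest principal coding transcript of GENCODE 29 (GRCh38), and each hairpin runs in the direction of its host gene. The hairpins overlapped no exon of a coding transcript. They lay in an intron of 3 of 5 coding transcripts of CTDSPL, 5 of 5 of CTDSP2 and 4 of 5 of CTDSP1, and outside the others. The host transcripts themselves were not measured by small RNA sequencing.

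miR-26a-5p was an abundant miR of HepG2 EVs and miR-26b-5p a rare one. miR-26a-5p had 152, 107 and 60 counts in batches 1, 2 and 3. These were 1.75% (95% Wilson interval 1.49% to 2.04%), 0.988% (0.818% to 1.19%) and 0.756% (0.588% to 0.972%) of the batch totals. Batch 1 stood above both other batches, with an interval that did not overlap theirs, while the intervals of batches 2 and 3 overlapped. The mean share was 1.16% ± 0.518 (SD, n = 3), and its rank was 11 of 225 counted names in batch 1, 14 of 206 in batch 2 and 15 of 192 in batch 3.

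miR-26b-5p had 11, 6 and 3 counts, or 0.126% (95% Wilson interval 0.0706% to 0.226%), 0.0554% (0.0254% to 0.121%) and 0.0378% (0.0129% to 0.111%) of the totals in batches 1, 2 and 3. All 3 intervals overlapped, and the 3 counts of batch 3 equal the floor that a count of 0 allows. Its mean share was 0.0732% ± 0.0469 (SD, n = 3), at ranks 70, 74 and 90. The family as a whole, nearly all of it miR-26a-5p, made up 1.87%, 1.04% and 0.794% of the counts, on average 1.24% ± 0.565 (SD, n = 3).

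**Figure D1:**
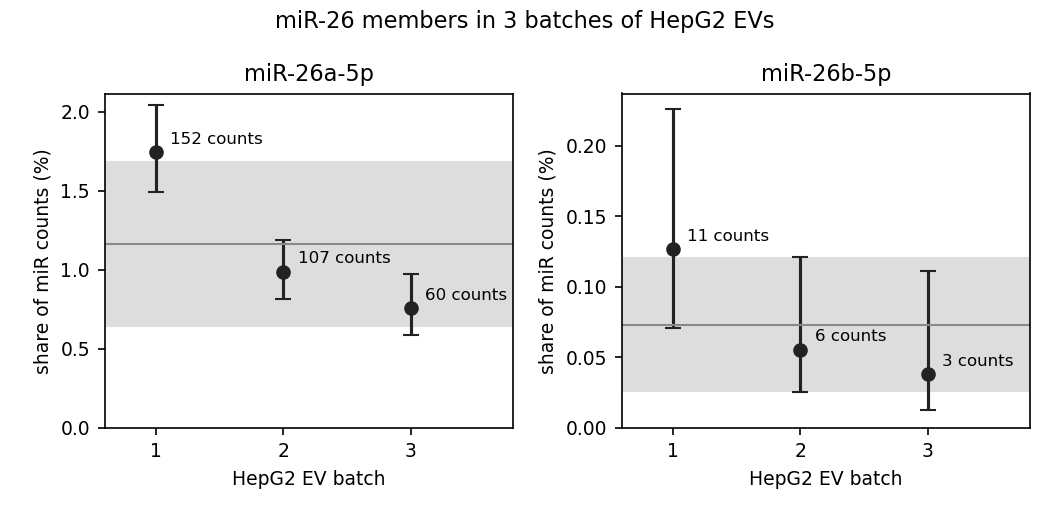
Share of all miR counts (y axis, %, linear from 0 and scaled separately for each panel) of miR-26a-5p and miR-26b-5p in each HepG2 EV batch (x axis). Points are single libraries with their counts, bars are 95% Wilson intervals, and the line and grey band are the mean and SD over 3 batches. For miR-26a-5p the interval of batch 1 (1.49% to 2.04%) lies above those of batches 2 and 3, and for miR-26b-5p all intervals overlap.

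miR-26a-5p exceeded miR-26b-5p in 3 of 3 batches, by 1.09 percentage points on average (SD 0.471, n = 3). With 3 batches an exact sign-flip test (two-sided) can reach no p below 0.25, which was its value here. The ratio of both counts within a library does not depend on its total, and was 13.8, 17.8 and 20 in batches 1, 2 and 3. On the log2 scale, with 0.5 added to both counts, miR-26a-5p stood 3.96 ± 0.20 (SD, n = 3) above miR-26b-5p. miR-26b-5p thus supplied 20 of 339 family counts, or 5.90% (95% Wilson interval 3.85% to 8.94%), with 6.75%, 5.31% and 4.76% in the batches. The exact Fisher-Freeman-Halton test found no difference in this split between the batches (p = 0.866). With 20 counts in sum the test had little reach: the odds of miR-26a-5p over miR-26b-5p in batch 1 were 0.692 times those in batch 3, with an exact 95% interval from 0.120 to 2.74.

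No read was counted for a 3p arm. miR-26a-1-3p, miR-26a-2-3p and miR-26b-3p each had 0, 0 and 0 counts. The count of miR-26a-5p, summed over its loci, was 50.7, 35.7 and 20 times the floor of 3 counts in batches 1, 2 and 3. Such ratios leave out the counting error of the 5p arm and are not lower bounds. The Wilson intervals of miR-26a-5p lay above those of both its 3p arms in each batch. For miR-26b the ratio was 3.67 in batch 1 and 2 in batch 2, and in batch 3 the 5p arm itself was at the floor. In batch 1 the Wilson interval of miR-26b-5p began at 0.0706%, above the upper limit of 0.0441% for miR-26b-3p. In batch 2 it began at 0.0254%, below the upper limit of 0.0354%, so no excess was shown there. One-sided hairpins of this kind were common in these libraries. Among 16 other precursors with at least 150 counts on an arm and a row for each arm, 5 had a minor arm at 0, as in miR-192, whose 5p arm is an abundant miR of hepatocytes with 820 counts in sum. The minor arm held a median of 0.238% of a precursor's counts, with the highest value in miR-423 (25.8%). Minor arms at about this share rested on single counts, 1 beside 444 for miR-122 and 1 beside 396 for miR-378a, so counts of 0 beside 319 for miR-26a-5p do not set its 3p arms apart from these.

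miR-26a-5p took rank 13 by mean share, and its neighbors were other abundant miRs whose order relative to it mostly changed between the batches. Next above were miR-183-5p, a miR of the sensory cluster also raised in tumors, with 1.21% ± 0.223, miR-378a-3p, encoded in the metabolic regulator gene PPARGC1B, with 1.45% ± 0.172, and miR-122-5p, which dominates the miRs of hepatocytes, with 1.67% ± 0.789 (SD, n = 3 each). miR-26a-5p exceeded each of these in 1 of 3 batches. Next below were miR-30d-5p with 1.08% ± 0.428, miR-182-5p of the same cluster as miR-183-5p with 1.02% ± 0.147 and miR-99b-5p with 0.988% ± 0.460 (SD, n = 3 each). miR-26a-5p was higher than miR-30d-5p in 3 of 3 batches, but by 0.0869 percentage points with an SD of 0.0940, and higher than miR-99b-5p in 3 of 3, by 0.176 with an SD of 0.0867. The difference from miR-182-5p, 0.147 with an SD of 0.641, was positive in 1 of 3. These orders are given as counts of batches and as differences with their SD, and were not tested. miR-26b-5p, at rank 76, stood between miR-7706 (0.0774% ± 0.0219) and miR-339-5p (0.0686% ± 0.0637, SD, n = 3 each), and exceeded each of them in 1 of 3 batches.

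Between the batches, the share of miR-26a-5p differed by more than counting noise. The share of batch 1 was 1.77 times that of batch 2 (exact 95% interval 1.37 to 2.29) and 2.31 times that of batch 3 (1.70 to 3.17). Batch 2 had 1.31 times the share of batch 3, with an interval that included no difference (0.943 to 1.82). In the exact multinomial test over the 3 libraries, adjusted by Benjamini-Hochberg over all 64 miRs with at least 30 counts in sum, miR-26a-5p had an adjusted p of 6.46e-08, with shares in the order of batches 1, 2 and 3. Such a call was frequent: 25 of the 64 miRs were called, a background of 39.1%, and 19, or 29.7%, were called with the highest share in batch 1. Without replicate 1, 4 of 50 miRs were called, so this background rests largely on that library. Calls also depend on depth: of 16 tested miRs with 150 to 600 counts in sum, miR-26a-5p included, 10 were called. The test sets single libraries against counting noise. It does not compare conditions, and a culture, its EV collection and its library preparation cannot be told apart. Without replicate 1 the call was lost, with an adjusted p of 0.456 in the same exact test, and the mean share of miR-26a-5p was 0.872%.

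The share of miR-26a-5p had a coefficient of variation of 44.5% over the batches, against a median of 23.1% over the 64 tested miRs. For 16 tested miRs of similar abundance (150 to 600 counts in sum, miR-26a-5p included) the median was 28.2%. In 13 of the 64 miRs it was larger. miR-26b-5p, with 20 counts in sum, was below the minimum of this test. When the minimum was lowered to 10 counts, its unadjusted p was 0.0922 and its adjusted p over 99 miRs 0.203 in the exact multinomial test. Its share in batch 1 was 3.34 times that in batch 3, with an exact 95% interval of 0.883 to 18.7, which holds the ratio of miR-26a-5p as well as no difference.

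Many miRs had a higher share in batch 1, so the pattern of miR-26a-5p was also read against that shift. Over the 64 miRs, the median log2 difference of batch 1 from the mean of batches 2 and 3 was 0.34, with 0.5 added to each count, and 43 miRs had their highest share in batch 1. For miR-26a-5p the same difference was 1.01 and for miR-26b-5p 1.36, and 12 miRs stood above miR-26a-5p. Scaling by TMM or by DESeq2 size factors, which align the bulk of the miRs, lowered the median to -0.10 and -0.07, and the difference of miR-26a-5p to 0.57 and 0.60. Its shares were then 1.43%, 1.10% and 0.830% of the TMM-scaled totals of batches 1, 2 and 3, still highest in batch 1. The adjusted p of the exact test was 0.00568 with TMM, 0.00342 with DESeq2 size factors and 0.0288 when the 5 most abundant miRs were left out of the totals. Under these scalings 22 of 64, 22 of 64 and 15 of 59 tested miRs were called, against 25 of 64 with batch totals. Calls highest in batch 1 were fewer, 8 of 22, 8 of 22 and 5 of 15 calls, against 19 of 25 with batch totals. Of the 19, 5 were called and highest in batch 1 under all 3 other scalings: miR-26a-5p, miR-21-5p, miR-122-5p, miR-99b-5p and miR-128-3p.

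**Figure D2:**
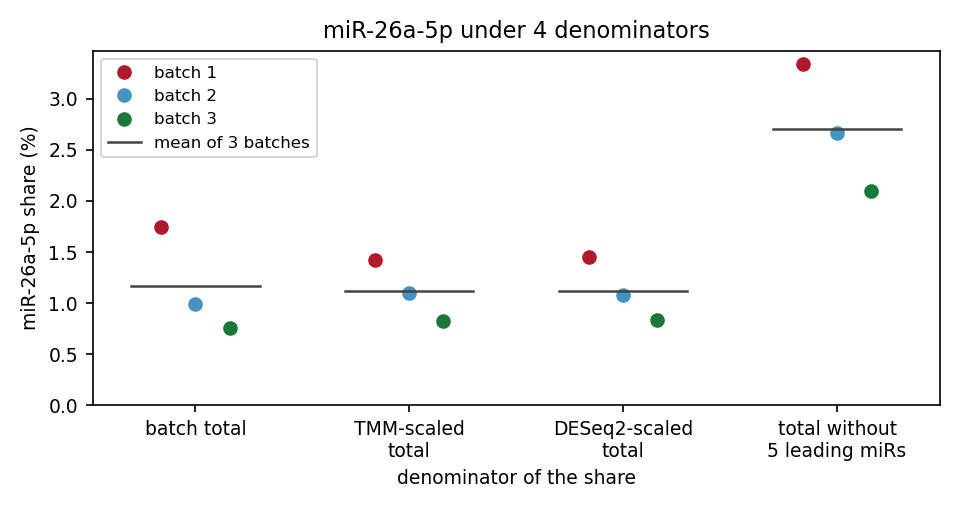
Share of miR-26a-5p (y axis, %, linear from 0) in each HepG2 EV batch (points) and the mean of 3 batches (line) under 4 denominators (x axis). The share is highest in batch 1 with each of them, and the gap between batch 1 and the others is smaller with TMM-scaled totals (1.43%, 1.10% and 0.830%) than with batch totals (1.75%, 0.988% and 0.756%).

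Markers of other cell types were few. The 17 miRs that mark blood, endothelial, stromal or muscle cells had 18, 8 and 8 counts in sum, or 0.207%, 0.0738% and 0.101% of the totals in batches 1, 2 and 3. Of these 7 had a count, led by miR-145-5p of smooth muscle (7, 3 and 3 counts) and miR-126-3p of endothelium (7, 2 and 2 counts), while miR-451a, miR-142-3p and miR-214-3p were at 0. The endothelial and stromal lists were highest in batch 1, on these few counts. The blood cell list held only single counts, of miR-486-5p (0, 1 and 1) and miR-223-3p (0, 1 and 0). Its shares of 0%, 0.0185% and 0.0126% lie below the floor of 3 counts and give no direction between the batches. HepG2 is a cell line and the cultures were not mixed with these cell types, so the lists do not measure such cells here. The source of their few counts was not tested. The summed hepatocyte miRs held 15.8%, 16.6% and 16.1% of the counts in the batches. Most of this sum was miR-148a-3p (10.5%, 12.6% and 11.2%), while miR-122-5p of the same list was highest in batch 1, with 2.48%, 0.905% and 1.64% (adjusted p = 8.13e-16 in the exact multinomial test). miR-192-5p was highest in batch 3, with 2.69%, 3.02% and 3.26%, but was not called (adjusted p = 0.179 in the same test). miR-194-5p had only 7, 7 and 3 counts.

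The miRs whose profile over the batches was most like that of miR-26a-5p were found by the distance between log2 shares centered on their mean, over 3 batches and among 64 miRs. The nearest was miR-30d-5p, a member of the miR-30 family that hepatocytes express strongly, at a distance of 0.096, against a median distance of 0.73. It had 135, 104 and 57 counts, or 1.55%, 0.960% and 0.719% in batches 1, 2 and 3. Next came miR-106b-3p (0.12), let-7a-5p (0.12), miR-99b-5p (0.16), miR-483-3p (0.25) and miR-200b-3p (0.26), all highest in batch 1. miR-99b-5p had 132, 83 and 54 counts. miR-106b-3p and let-7a-5p had only 23, 18 and 10 and 23, 16 and 10 counts, and were not called between the batches (adjusted p of 0.206 and 0.159 in the exact multinomial test). miR-26b-5p stood at a distance of 0.39, and 11 miRs were nearer to miR-26a-5p. Scaling by TMM shifts all miRs of a batch alike and cannot change these distances, so the same 6 nearest under it are no check. With 3 points shared by all miRs, these distances describe the libraries only.

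**Figure D3:**
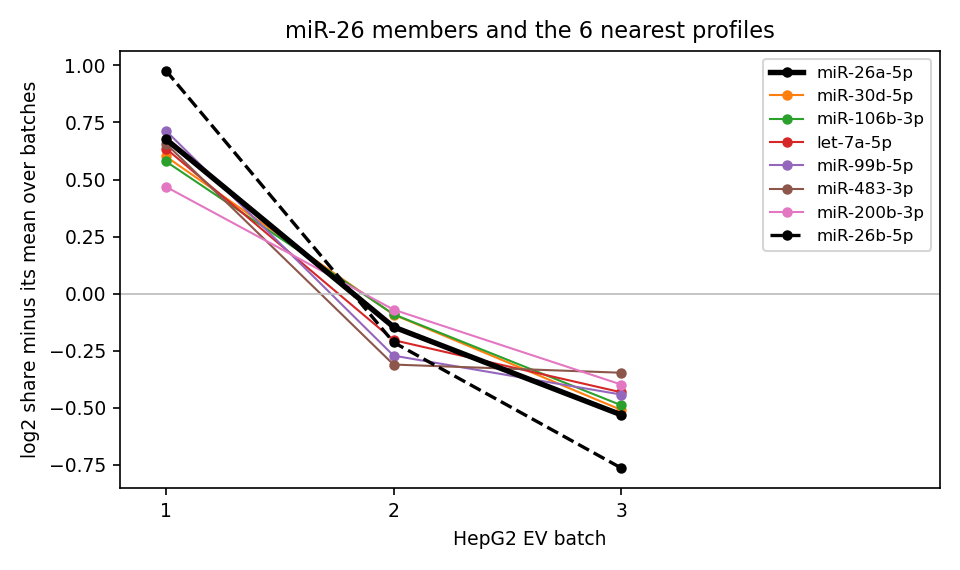
Log2 share minus its mean over the batches (y axis) of miR-26a-5p (thick line), miR-26b-5p (dashed line) and the 6 miRs with the nearest profiles in each HepG2 EV batch (x axis); the batches have no order and lines only connect the values of a miR. All 8 miRs have their highest share in batch 1, with 0.68 for miR-26a-5p and 0.98 for miR-26b-5p.

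Among 24 miRs listed from general knowledge as lowered in liver cancer, miR-26a-5p was exceeded in HepG2 EVs only by miR-148a-3p and miR-122-5p. No EVs of non-tumor hepatocytes and no cell RNA were sequenced, so this rank does not tell whether miR-26a-5p is lowered or kept in HepG2. The list made up 16.4%, 15.6% and 14.6% of the counts in batches 1, 2 and 3. Most of it was miR-148a-3p, a miR that hepatocytes express strongly, at 11.4% ± 1.08 (SD, n = 3), and miR-122-5p came after it with 1.67% ± 0.789. The miR-26 family supplied 11.4%, 6.68% and 5.45% of the list, and 31.8%, 34.9% and 23.6% of what was left without miR-148a-3p. miR-26a-5p stood above let-7g-5p, a member of the let-7 family that restrains oncogenes such as LIN28B, which had 0.521% ± 0.0374 (SD, n = 3). Other tumor suppressors were rarer, with 0.174% ± 0.0408 (SD, n = 3) for miR-29a-3p, which restrains collagen genes. miR-29b-3p, miR-29c-3p, miR-125b-5p, miR-195-5p and miR-199a-5p had no count in any batch. The lists overlap: miR-145-5p, miR-199a-5p, miR-199b-3p and miR-223-3p are also among the stromal or blood cell markers above. Of the 24, 6 had enough counts for the test between the batches. It called miR-26a-5p, miR-122-5p and miR-148a-3p, that is 3 of 6 beside the background of 39.1%, and miR-148a-3p was highest in batch 2. The called 3 had the most counts of the 6, and calls are more frequent at higher counts.

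The 20 miRs listed as raised in liver cancer made up 23.4%, 17.9% and 17.5% of the counts. They were led by miR-483-5p, which lies in the growth factor gene IGF2, with 8.17% ± 0.367 and miR-21-5p, known as an oncogenic miR, with 4.18% ± 2.72 (SD, n = 3 each). Of 12 tested, 5 were called, 4 of them highest in batch 1, beside backgrounds of 39.1% and 29.7%. miR-26a-5p reached 0.239, 0.399 and 0.274 times the counts of miR-21-5p in batches 1, 2 and 3. The share of miR-21-5p was 7.32%, 2.47% and 2.76% in these batches. Shares of different miRs are set by adapter ligation as well as by abundance, so the order of miRs is an order of counts.

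**Figure D4:**
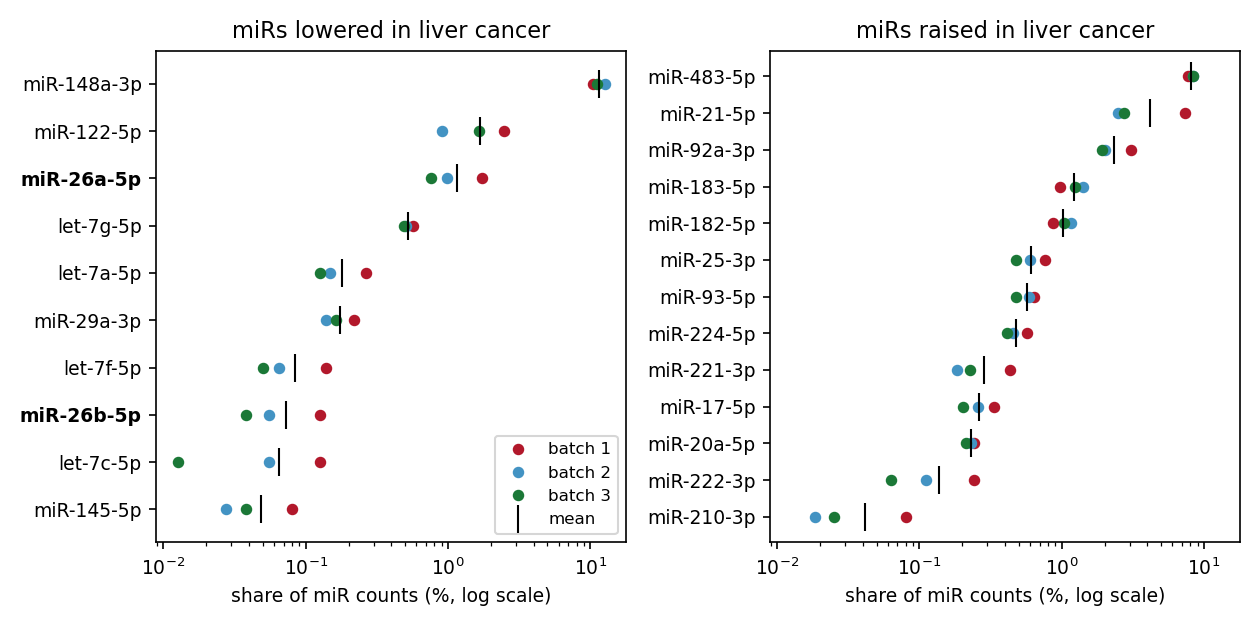
Shares (x axis, % of miR counts, log scale) of 10 miRs of the list lowered in liver cancer and 13 of the list raised in liver cancer, those with a count in every batch and at least 10 in sum; points are the HepG2 EV batches, ticks are means of 3 batches, and miR-26 members are in bold. miR-26a-5p (mean 1.16%) lies below miR-148a-3p and miR-122-5p in its list and miR-26b-5p (mean 0.0732%) near the lower end.

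The seed that both counted members share was searched for in 3' UTRs as a description of what the family could pair with, on the sense strand of the longest 3' UTR per gene in GENCODE 29. The heptamer TACTTGA pairs with bases 2 to 8, and the octamer TACTTGAA, which contains it, has an A opposite base 1. Of 19127 genes, 2214, or 11.6%, held the heptamer, and 959, or 5.01%, the octamer. Among 17 genes listed as described targets of miR-26, 14 held the heptamer and 11 the octamer, against a mean of 26.6% with the heptamer in 3' UTRs of like length (80% to 125% of the length). Such targets are often picked by their seed site, so this count is no independent evidence. Sites are printed for the genes best known for the family, with the match in capitals and on the strand of the transcript.
EZH2: ctttgaataaagaaTACTTGAActtg
CCND2: agttgtattcagcgTACTTGAAtttt
SMAD1: ttgagccttgcatgTACTTGAAggat
EZH2 held 1 site, in a 3' UTR of only 262 bases, at chr7:148807385-148807410 on the minus strand. SMAD1, a transducer of bone morphogenetic protein signals, held 2 heptamers in 145 bases, the octamer at chr4:145557966-145557991. The octamer of CCND2 lies at chr12:4301392-4301417. CDK6, a kinase that drives entry into the cell cycle, held 2, and RB1, which restrains it, held 1. HMGA2, IL6 and TET2 of the list held none in the 3' UTR searched. Their other transcripts, which may end in another 3' UTR, were not searched. The host genes CTDSP1, CTDSP2 and CTDSPL held no heptamer, in 3' UTRs of 1516, 3675 and 3602 bases.

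Of 22 fibrosis genes listed, 21 had a 3' UTR here, and 5 of these, or 23.8%, held the heptamer. The mean in 3' UTRs of like length was 9.91%, and the difference, which rests on 5 genes, was not tested. These genes were chosen for the study's interest in liver fibrosis, in which stellate cells deposit collagen. The study gave the EVs to mice and measured fibrosis genes in mouse liver. It also searched for predicted fibrosis targets of abundant EV miRs, and miR-26a-5p is not among the miRs it named for them. The 3' UTRs searched here are human, and those of mouse were not searched.
COL1A2: aatagtatttcagaTACTTGAAgaat
COL10A1: ttgtagaacttaaaTACTTGAAtatt
COL4A1: actagttcctattcTACTTGAggacc
COL5A1: gactgggttgtgccTACTTGAtttga
MMP15: tgtttttggcacctTACTTGAccatt
COL1A2, a chain of the main fibrillar collagen of scars, held the octamer at chr7:94430882-94430907. COL10A1, a collagen of short chains, held it at chr6:116119593-116119618 on the minus strand. COL4A1 of basement membranes (chr13:110242302-110242327, minus strand), COL5A1, a fibrillar collagen (chr9:134843606-134843631), and MMP15, a membrane-bound metalloproteinase (chr16:58045603-58045628), held the heptamer alone. COL1A1, COL3A1, ACTA2, CTGF (now called CCN2), RELN, MMP2 and TIMP1, the genes that the study measured in mouse liver, held none. These are matches of letters in annotated transcripts. No target was measured in these libraries. A gene without this heptamer may pair in other ways or hold it in a transcript that was not searched.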

How the data were processed

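Small RNA was measured in 3 batches of HepG2 EVs. The authors used NEBNext small RNA libraries, an Illumina MiniSeq and miRTrace for quality control, and deposited the raw count of each miR name, without normalization. The submitters' notes name GRCh38, and how reads were aligned and counted is not given in the sources used here. Shares of the batch total were computed with 95% Wilson intervals. MiRs of at least 30 counts in sum were tested by full enumeration of the exact multinomial test, adjusted by Benjamini-Hochberg (threshold 0.05). Tested on data simulated with counting noise alone, the script recovered most of the largest known changes, which were larger than those of miR-26a-5p. The simulated data held no further spread between libraries. No pair of libraries was identical, and each pair differed in at least 4 miRs. Named were all members, 3 neighbors on each side, the 6 nearest profiles, members of fixed lists and genes with seed sites; part of these is summarized. Members and lists were chosen with earlier results of these data known. Alternatives covered scaling, filters, pseudocount, pooling and each batch left out. Sequences are from RefSeq (GRCh38.p14) and GENCODE 29 (both GRCh38, 1-based). Scaling factors came from edgeR 4.0.16 and DESeq2 1.42.0 in R 4.3.3, and all else from Python 3.11.15 (scipy 1.17.1, numpy 2.4.6, matplotlib 3.10.9, pandas 2.3.3).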

Additional observations from a re-analysis of the deposited data

How the results depend on the processing

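No paired analysis was possible because all batches belong to 1 condition. Relative to totals that leave out the 5 leading miRs, the mean shares were 2.70% for miR-26a-5p, 0.165% for miR-26b-5p and 2.87% for the family, by construction higher, and 15 of 59 miRs differed between the batches. TMM, DESeq2 size factors and pooled counts moved these shares by less than 1 SD. With 1 batch left out, the share of miR-26a-5p ran from 0.872% to 1.37%, that of miR-26b-5p from 0.0466% to 0.0909% and that of the family from 0.919% to 1.46%. The miRs that differed then numbered from 4 of 50 (without replicate 1) to 18, and the adjusted p of miR-26a-5p in the exact multinomial test ran from 1.23e-07 to 0.456, lost only without replicate 1. The log2 ratio of miR-26a-5p to miR-26b-5p ran from 3.89 to 4.08, and was 3.85 with 1 added to both counts. Leaving out a batch for the difference between both members, added after seeing the data, gave 0.825 to 1.28 percentage points. Depth limits miR-26b-5p and the 3p arms most.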
